A study of Homo sapiens with 12 samples.

Results

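Keratins are the intermediate filament proteins of epithelial cells. Each filament is built from pairs of a type I and a type II keratin, so the 2 classes are needed together. KRT8 (type II) and KRT18 (type I) form the filaments of simple, single-layered and secretory epithelia, where KRT7 and KRT19 mark ducts, while KRT5 with KRT14 and KRT15 mark the basal layer of layered epithelia, and KRT6A, KRT16 and KRT17 are keratins of stressed or healing skin. In salivary glands, acinar cells carry KRT8 and KRT18, ducts add KRT7 and KRT19, and basal and myoepithelial cells carry KRT5 and KRT14.

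The 10 keratins described here are the type II genes KRT5, KRT6A, KRT7 and KRT8 and the type I genes KRT14, KRT15, KRT16, KRT17, KRT18 and KRT19. They were taken by name from the deposited tables and matched by gene identifier, which gave 10 of the 60609 annotated genes. The values of each gene are TPM (a relative abundance corrected for transcript length and scaled to the same sum in each library), summed over its transcripts, in 12 libraries of polyadenylated RNA.

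NS-SV-AC, the source of every library, is an established line of human salivary acinar cells immortalised with SV40, and the series concerns double-stranded RNA of mitochondria in Sjögren's syndrome. Cells received DMSO alone, RES (resveratrol, a plant polyphenol) or 2-CM (2'-C-methyladenosine, an analogue of adenosine), with both compounds at 20 in a unit taken to be micromolar, from 24 h before transfection and once more together with it. Transfection was with poly I:C, a double-stranded RNA mimic, for 14 h, or with the control called depc in the labels, and cells were grown for 48 h. This gave 6 groups of 2 replicates: DMSO depc, DMSO poly I:C, 2-CM depc, 2-CM poly I:C, RES depc and RES poly I:C. The line is 1 cell line, and nothing states that replicates were separate cultures, so p-values measure only the spread between these libraries, which may be technical. Each library held 31.2 to 49.4 M estimated reads, and 13438 to 16554 genes reached a TPM of 1. The interferon response checks the transfection: IFIT1, IFIT3, MX1, OAS1, OAS2 and ISG15 all rose with poly I:C averaged over compounds, where 13.4% of all tested genes rose, with a median log2 fold change of 5.25. They kept these calls in all 12 alternatives and with each of the 12 libraries left out. Among these alternatives, the fit with only the groups compared uses all 6 groups here and repeats the fit as reported. Added pseudogene copies leave the values of these 6 genes unchanged. Under each compound alone limma also called all 6 higher, beside 0.797% of all tested genes with DMSO, 37.5% with 2-CM and 0.198% with RES, and these calls held less well. Under RES the call of IFIT3 (adjusted p = 0.0362) was lost in 3 of 12 alternatives and with 10 of the 12 libraries left out. With only the groups compared, 3 of the 6 were called under DMSO and 0 under RES, in fits that called 6 and 0 of all genes.

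Markers of other cell types and of the acinus itself were looked at first. Of 12 acinar genes, 1 passed the filter used for testing (TPM not under 1 in 2 libraries or more), BHLHA15, a secretory cell transcription factor, at 0.507 to 2.69 TPM. AQP5, MUC7, PIP, STATH, HTN1 and HTN3, the water channel and secreted proteins of the acinus, were listed at 0 in all 12 libraries. The 12 acinar markers summed to 0.831 to 3.68 TPM. CDH1 (E-cadherin) lay at 0.189 to 0.596 TPM and EPCAM at 0.0869 to 1.23 TPM. COL1A1 and COL3A1, fibrillar collagens of fibroblasts, lay at 15.9 to 100.3 and 14.2 to 60.1 TPM. They are among the 5 of 8 fibroblast markers that passed the filter. COL1A2, PDGFRA and THY1 did not pass, with highest values of 0.0193, 0.0813 and 0.7497 TPM. Of 5 immune markers, 2 passed, CD14 at 7.05 to 15.8 TPM and CD68 at 1.68 to 8.80 TPM, while PTPRC and CD3E were listed at 0. The label of an acinar line was therefore not matched by its secretory markers, and the cells are called NS-SV-AC below.

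The RefSeq promoters of KRT8 and KRT5 are printed because they were the only members with a promoter entry (2 of 10). Each line gives the 250 bases before the RefSeq start on the minus strand of GRCh38.p14, 5′ to 3′. All are in lower case because none of the motifs searched for was found in them. KRT8 lies at chr12:52926470-52926719 with a GC content of 50.4%, and KRT5 at chr12:52520395-52520644 with 56.0%. The KRT8 sequence precedes the start that the transcripts below call the intermediate one. That start belongs to 1 of the 17 KRT8 transcripts and held a median of 24.0% and at most 75.9% of KRT8 TPM. The window therefore says little about the level of the whole gene. In the annotation behind the TPM values KRT5 starts at 52520530 on the minus strand, so part of its window lies inside the gene.

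KRT8: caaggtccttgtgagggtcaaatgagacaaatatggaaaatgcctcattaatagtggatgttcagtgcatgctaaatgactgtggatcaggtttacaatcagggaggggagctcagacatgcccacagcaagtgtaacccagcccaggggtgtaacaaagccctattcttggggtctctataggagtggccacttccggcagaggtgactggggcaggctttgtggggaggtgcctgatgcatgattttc
KRT5: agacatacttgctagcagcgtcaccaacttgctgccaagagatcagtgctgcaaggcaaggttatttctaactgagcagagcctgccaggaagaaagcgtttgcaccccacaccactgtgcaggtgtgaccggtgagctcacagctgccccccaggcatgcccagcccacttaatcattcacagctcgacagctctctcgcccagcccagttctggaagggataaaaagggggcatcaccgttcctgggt

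The motifs searched on both strands were the TATA box TATAAA, the GC box GGGCGG, the AP-1 site TGANTCA and the interferon element (GAAA, any 2 bases, GAAA). None occurs in either window. Over 35116 promoters of the same length, 10.7% hold the TATA box, 42.6% the GC box, 6.57% the AP-1 site and 3.02% the interferon element. These are matches to letters in one window and say nothing about binding.

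KRT8 and KRT18 were by far the highest of the 10 keratins. KRT8 (ENSG00000170421.12, chromosome 12, 52897187 to 52949954, minus strand) had a lowest, median and highest TPM over the 12 libraries of 630, 1038 and 1958, with a mean of 1139 ± 436 (SD, n = 12 libraries of 6 groups), rank 109 of all genes by mean. KRT18 (ENSG00000111057.11, chromosome 12, 52948871 to 52952906, plus strand) had 466, 668 and 1571, rank 136. Together they made up 99.6% to 99.95% of the TPM of the 10 genes, and the 10 genes made up 0.110% to 0.353% of a library's TPM. KRT8 exceeded KRT18 in 12 of 12 libraries, with a ratio of TPM between 1.22 and 1.69 and a median of 1.36. Because KRT8 holds nearly all of the type II TPM and KRT18 nearly all of the type I TPM, the ratio of the 2 classes followed the same range, 1.22 to 1.68.

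KRT17 and KRT7 followed, at a few TPM or less. KRT17 (ENSG00000128422.17, chromosome 17, 41619442 to 41624842, minus strand) had a lowest, median and highest TPM of 0.245, 1.47 and 4.52, and rested on 13.6 to 107 estimated reads per library. KRT7 (ENSG00000135480.16, chromosome 12, 52232520 to 52252186, plus strand) had 0.636, 1.16 and 2.16 TPM, on 17.2 to 92.6 estimated reads. Their ranges overlap, and their order by mean (1.66 ± 1.11 against 1.23 ± 0.440, SD over the 12 libraries) lies within that spread.

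The other 6 keratins did not pass the filter. KRT15, a keratin of basal cells, was above 0 in 5 libraries, which were the 4 RES libraries and 2-CM depc replicate 2, with at most 0.208 TPM and 10.8 estimated reads. KRT19, the smallest keratin and a duct marker, was above 0 in 4 libraries, which were 2-CM poly I:C replicate 1, both RES depc libraries and RES poly I:C replicate 1, with at most 0.243 TPM and 7.34 estimated reads. KRT5, KRT6A, KRT14 and KRT16 were listed at 0 in all 12 libraries. At this depth a count of 0 allows up to 3 reads. On the longest transcript of each of these 4 genes that is 0.0380 to 0.0947 TPM, and shorter transcripts allow more. Intervals and floors of this kind cover counting error only. In the authors' deposited tables, the mean normalised count of KRT5, KRT6A, KRT14 and KRT16 was also 0 under each compound.

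**Figure D1:**
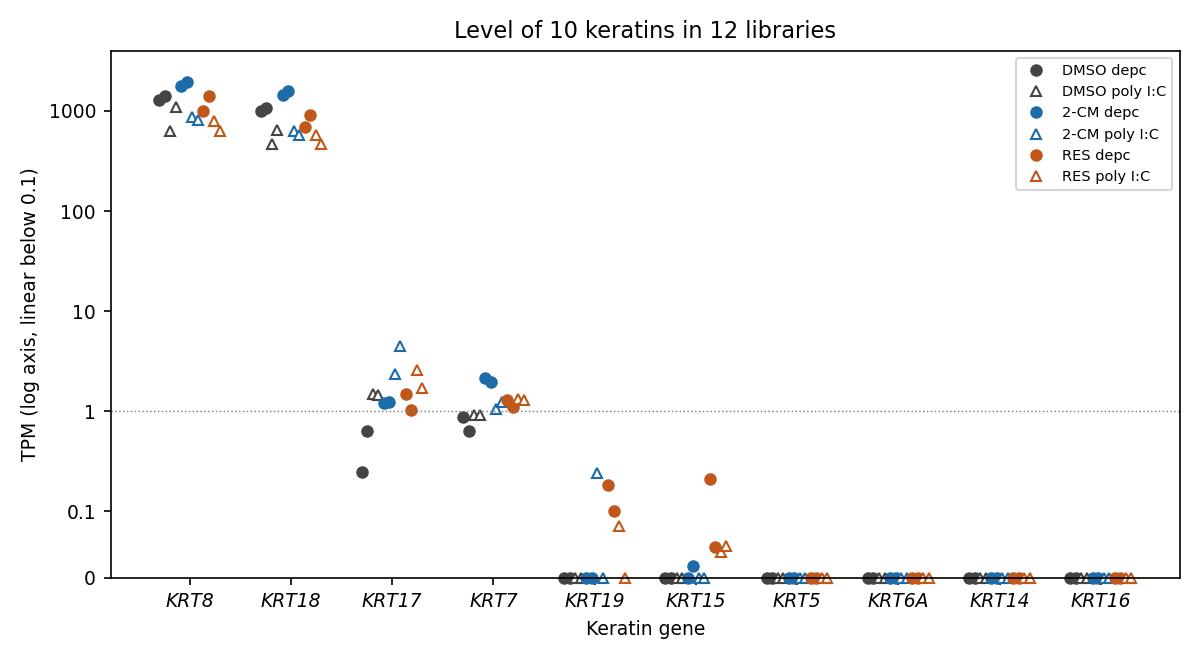
TPM of the 10 keratins (log axis, linear below 0.1) in each of the 12 libraries, colours for compound, circles for depc and triangles for poly I:C. KRT8 and KRT18 lie between 466 and 1958, KRT17 and KRT7 between 0.245 and 4.52, and 4 genes are at 0 throughout. The dotted line marks the TPM of 1 used in the filter.

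KRT8 and KRT18 lie head to head on chromosome 12 and overlap. Their gene spans share 1084 bases on opposite strands, of which 525 are exonic, 17.1% of the exon bases of KRT18. The sequencing kit keeps strand, but no header states that strand was used in the counting, so reads in these bases cannot be assigned with certainty. KRT7 likewise shares bases with KRT7-AS and KRT87P on the opposite strand and with KRT86 on its own strand.

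The transcripts behind KRT8 were split unevenly. The annotation holds 17 KRT8 transcripts. Of these, 8 start at 52949776 to 52949954, within the KRT18 gene, 1 starts at 52926469 (the intermediate start) and 8 start at 52901867 to 52907060 (the proximal starts). The group of 8 beside KRT18 held 1.41% to 76.6% of KRT8 TPM, with a median of 56.4%. The intermediate start held 0% to 75.9%, with a median of 24.0%, and the proximal starts 14.5% to 78.7%, with a median of 23.5%. Replicates of some groups differed as widely as groups did: in DMSO depc the share beside KRT18 was 1.51% in replicate 1 and 67.8% in replicate 2, and in 2-CM poly I:C it was 1.41% and 61.5%. The share was therefore not compared between conditions. The mean transcript length of KRT8, weighted by TPM, lay between 1682 and 2114 bases over the libraries, and that of KRT18 between 1424 and 1472. By estimated reads, KRT8 had 1.61 to 2.07 times the value of KRT18. Reads are not corrected for transcript length, so this ratio also holds the difference in length.

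**Figure D2:**
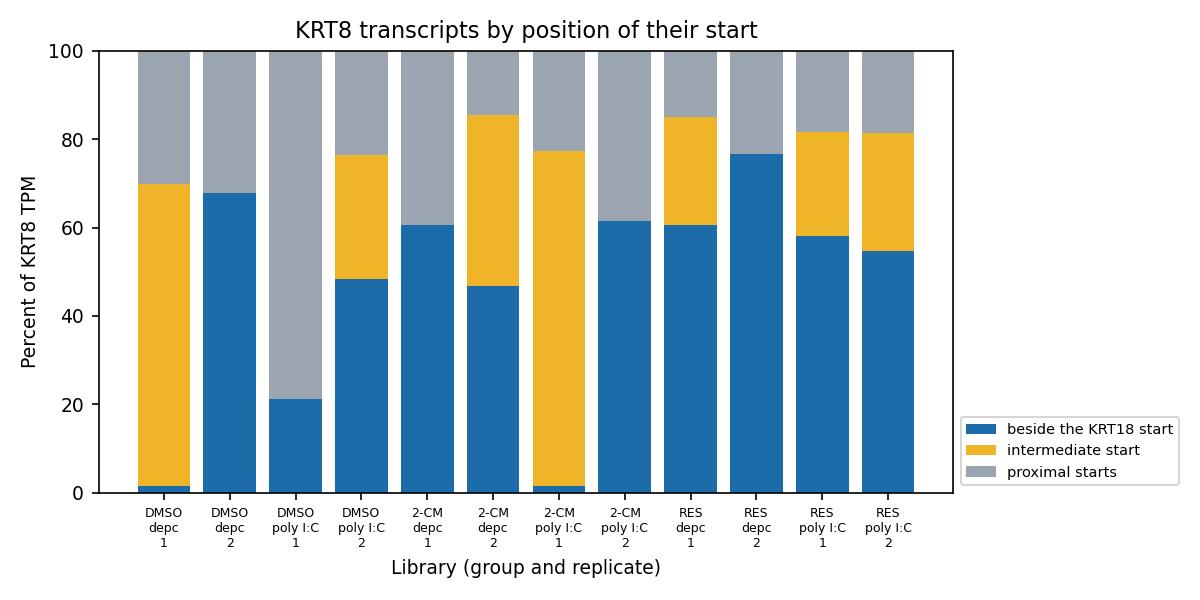
Percent of KRT8 TPM (vertical axis) in each of the 12 libraries on transcripts that start beside KRT18, at the intermediate start and at the proximal starts. The share beside KRT18 runs from 1.41% to 76.6%, and in DMSO depc and 2-CM poly I:C the replicates differ as much as any groups do.

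For KRT18, ENST00000388837.6 held 77.1% and ENST00000388835.4 18.9% of mean TPM. For KRT17, ENST00000311208.13 held 57.2%. KRT7 was split between ENST00000552322.5, a short transcript of 816 bases (46.6%), and ENST00000331817.6, of 1625 bases (38.8%). A transcript share built on so few reads is unstable: ENST00000331817.6 ranged from 0% to 99.2% of KRT7 over the libraries.

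Processed copies of KRT8 and KRT18 are scattered through the genome, and short reads can be split between them and the source gene. The 50 annotated pseudogenes named for KRT8 summed to 10.5 to 23.5 TPM, 1.12% to 2.38% of KRT8, led by KRT8P3 at 4.74 to 14.5 TPM. The 68 named for KRT18 summed to 5.86 to 21.6 TPM, 0.470% to 3.01% of KRT18, led by KRT18P17 at 2.09 to 7.47 TPM. Adding these copies to the genes changed no call of the comparisons below.

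With poly I:C, KRT8 and KRT18 were lower and KRT17 higher, averaged over the compounds. KRT18 measured 1009 and 1069 TPM in DMSO depc, 468 and 645 in DMSO poly I:C, 1448 and 1571 in 2-CM depc, 627 and 579 in 2-CM poly I:C, 690 and 905 in RES depc, and 577 and 466 in RES poly I:C. All 6 depc libraries lay above all 6 poly I:C libraries, and the 6 poly I:C values (466 to 645) spanned a narrower range than the depc values (690 to 1571). How many of all tested genes separate in this way was not counted, here or for the ranges below, so these separations are descriptions. On the log2(TPM + 1) scale KRT18 fell by 0.95 ± 0.11 (SE), adjusted p = 0.00152 in limma over all 17185 tested genes, and its mean TPM with poly I:C was 0.502 times that with depc.

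KRT8 measured 1292 and 1425 TPM in DMSO depc, 630 and 1087 in DMSO poly I:C, 1761 and 1958 in 2-CM depc, 863 and 810 in 2-CM poly I:C, 989 and 1426 in RES depc, and 795 and 631 in RES poly I:C. Within each compound the 2 ranges did not overlap, but over all libraries they did, since DMSO poly I:C replicate 2 at 1087 exceeded RES depc replicate 1 at 989. KRT8 fell by 0.87 ± 0.15 on the log2 scale, adjusted p = 0.00589 in limma, to 0.544 times the mean depc level.

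KRT17 went the other way. It measured 0.245 and 0.630 TPM in DMSO depc, 1.47 and 1.46 in DMSO poly I:C, 1.20 and 1.23 in 2-CM depc, 2.35 and 4.52 in 2-CM poly I:C, 1.49 and 1.03 in RES depc, and 2.59 and 1.71 in RES poly I:C. Within each compound the 2 ranges did not overlap, and over all libraries the ranges met only between 1.46 and 1.49 TPM. KRT17 rose by 0.74 ± 0.16 on the log2 scale, adjusted p = 0.0125 in limma, with a mean TPM 2.42 times the depc level. With upper-quartile scaling the same gene gave 0.51 with adjusted p = 0.0583. KRT17 is a gene of low level here and rests on few reads.

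KRT7 measured 0.871 and 0.636 TPM in DMSO depc, 0.922 and 0.908 in DMSO poly I:C, 2.16 and 1.95 in 2-CM depc, 1.06 and 1.23 in 2-CM poly I:C, 1.28 and 1.09 in RES depc, and 1.31 and 1.29 in RES poly I:C. Within each compound its TPM ranges did not overlap, with poly I:C above depc under DMSO and RES and below it under 2-CM. Its estimated reads went the other way under DMSO, at 37.6 and 31.05 with depc and 27.2 and 24.3 with poly I:C. Under RES the reads overlapped, at 40.9 and 33.1 with depc and 35.8 and 32 with poly I:C. Under 2-CM they fell as TPM did, from 92.6 and 72.4 to 17.2 and 19.2. These reads are not corrected for depth or transcript length, and the cause of the difference was not tested. The averaged log2 fold change of KRT7 was -0.10 (adjusted p = 0.401 in limma), and this value changed sign with the GC correction (0.25, adjusted p = 0.0884). With voom on estimated reads it was -0.67 and passed (adjusted p = 0.0241).

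**Figure D3:**
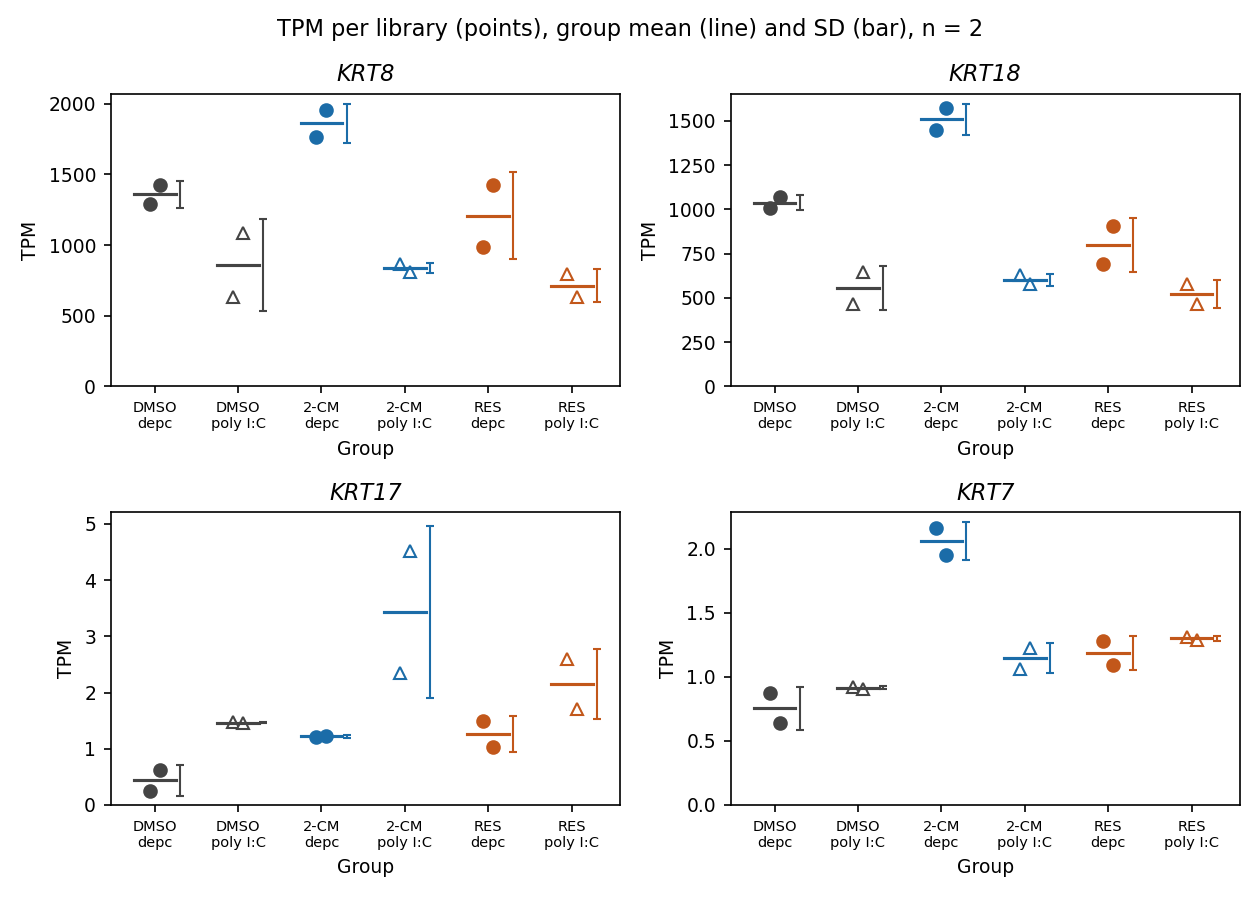
TPM of KRT8, KRT18, KRT17 and KRT7 in each library (points, vertical axis from 0) for the 6 groups, with the group mean as a line and the SD as a bar, n = 2. KRT18 is lower in every poly I:C library (466 to 645) than in every depc library (690 to 1571), and KRT17 is higher in poly I:C within each compound.

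In the averaged comparison, 3 of the 4 testable keratins passed the test, and in it 31.2% of all 17185 tested genes were called (17.8% lower and 13.4% higher). With 1 library left out, these 5361 calls ran from 2344, where it was 2-CM depc replicate 2, up to 9183, where it was RES depc replicate 1, and 3 of the 4 keratins passed in each such fit. Averaged over compounds the median log2 fold change of all tested genes was 0.16. KRT8 and KRT18 have a GC content of 55.9% and 55.7%, and among genes within 2 points of that GC the median was -0.27 for each, with 4.98% and 3.31% of those genes lower than the member. With log2 values corrected for GC, KRT8 fell by 0.60 (adjusted p = 0.00818) and KRT18 by 0.69 (adjusted p = 0.000971). For KRT17, at 59.0% GC, the median of its band was -0.41, and 98.9% of those genes lay below it. In a bulk sample, fewer cells of a kind and less RNA per cell cannot be told apart.

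Taken by compound, the test gave different counts. Under DMSO, 1 of the 4 keratins passed, KRT18, which fell by 0.92 ± 0.20 (adjusted p = 0.0423), where 4.08% of all tested genes were called (3.28% lower). KRT8 had -0.71 ± 0.27 (adjusted p = 0.179), KRT17 0.79 ± 0.28 (0.156) and KRT7 0.13 ± 0.17 (0.771). Of the 4, 3 had an unadjusted p under 0.05, beside 19.7% of all tested genes. The KRT18 call was lost in 7 of 12 alternatives, and it was lost when any of the DMSO or 2-CM libraries, or RES poly I:C replicate 1, was left out, with an adjusted p between 0.051 and 0.271 in those fits.

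Under 2-CM, all 4 passed, in a comparison that called 49.3% of all tested genes (37.5% higher and 11.8% lower). KRT18 fell by 1.32 ± 0.20 (adjusted p = 0.0151), KRT8 by 1.15 ± 0.27 (0.0274) and KRT7 by 0.51 ± 0.17 (0.0368), and KRT17 rose by 0.95 ± 0.28 (0.0313). The median log2 fold change of all tested genes was 0.61 in this comparison, against 0.025 with median-of-ratios and -0.20 with upper-quartile scaling, so the members' changes are read against a shifted base. With upper-quartile scaling KRT8 had -2.34, KRT18 -2.51, KRT7 -1.19 and KRT17 0.17, of which KRT17 did not pass (adjusted p = 0.68). The call of KRT17 was lost in 3 of 11 alternatives, the other two being median-of-ratios scaling (0.38, adjusted p = 0.301) and no filter (adjusted p = 0.0784). The call of KRT7 was lost in 4 of 11 alternatives (no filter, the pseudocount of 0.1, and GC correction with and without the replicate block), with values from -1.77 to -0.21 and an adjusted p of up to 0.377, and that of KRT8 was lost with no filter (adjusted p = 0.0642). With each of the 4 2-CM libraries left out in turn, 0 of the 4 keratins passed in limma. Those fits called 37 to 46 of all 17185 tested genes, against 8475 with every library. The log2 fold changes then lay between -1.38 and -1.26 for KRT18, -1.23 and -1.07 for KRT8, -0.57 and -0.46 for KRT7, and 0.59 and 1.32 for KRT17. Leaving out either DMSO depc library also took the call of KRT7 (adjusted p = 0.0526 and 0.0520).

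Under RES, limma called 0 of the 4, where 0.442% of all tested genes were called. KRT18 had -0.61 ± 0.20 (adjusted p = 0.228), KRT8 -0.75 ± 0.27 (0.264), KRT17 0.47 ± 0.28 (0.514) and KRT7 0.07 ± 0.17 (0.868). Of the 4, 2 had an unadjusted p under 0.05, beside 14% of all tested genes, and voom on estimated reads also called 0. The RES depc replicates lay apart, at 989 and 1426 TPM for KRT8.

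**Figure D4:**
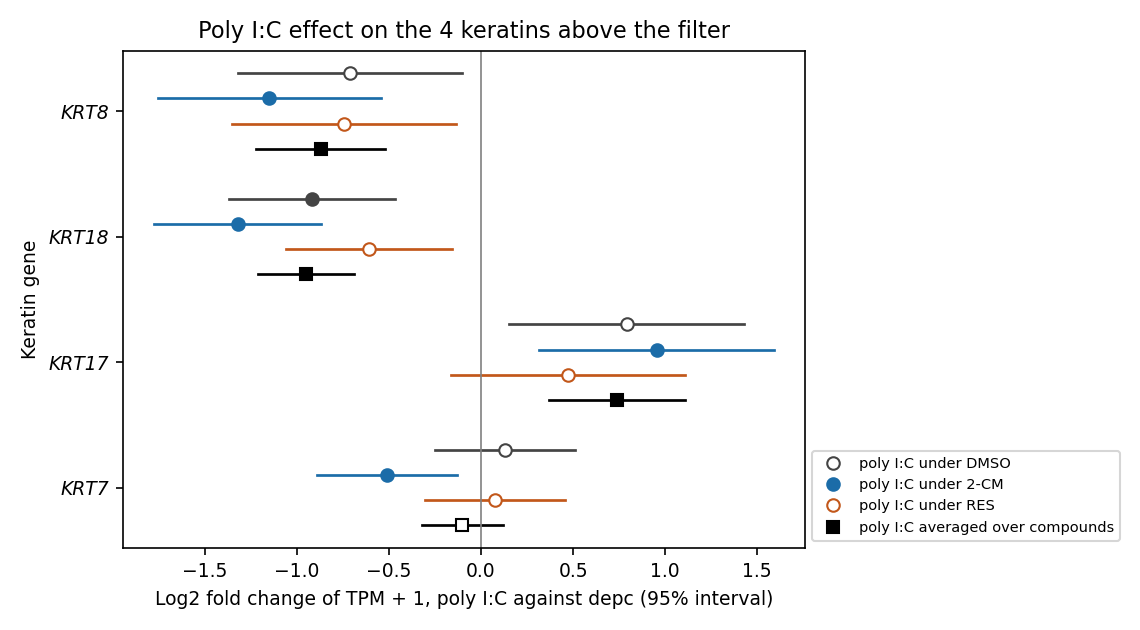
Log2 fold change of TPM + 1 with poly I:C against depc and its 95% interval (horizontal axis) for 4 keratins, by compound and averaged. Filled symbols have an adjusted p under 0.05: KRT18 and KRT8 lie below 0 in every comparison shown, KRT17 above 0, and KRT7 is called only under 2-CM.

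The difference between compounds was tested directly, with both differences using the same DMSO libraries. The response under 2-CM minus that under DMSO passed for 0 of the 4 keratins in limma and in voom, where limma called 0.0116% of all genes. At an unadjusted p under 0.05 it was 1 of the 4, beside 29.7% of all genes, near that background. The difference was -0.41 for KRT18 (95% interval -1.04 to 0.23), -0.44 for KRT8 (-1.30 to 0.42), 0.16 for KRT17 (-0.74 to 1.06) and -0.64 for KRT7 (-1.18 to -0.10, adjusted p = 0.161). The response under RES minus that under DMSO passed for 0 keratins and 0 genes in all, with 0 keratins and 1.7% of all genes at an unadjusted p under 0.05. Its values were 0.31 for KRT18 (-0.33 to 0.95), -0.03 for KRT8 (-0.89 to 0.83), -0.32 for KRT17 (-1.22 to 0.58) and -0.06 for KRT7 (-0.59 to 0.48). These intervals leave room for a difference of either sign in 7 of the 8 cases.

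The compounds were then compared with DMSO at the same transfection. In depc libraries, 2-CM gave 0.80 ± 0.17 for KRT7, 0.54 ± 0.20 for KRT18, 0.64 ± 0.28 for KRT17 and 0.45 ± 0.27 for KRT8, none of which passed (adjusted p = 0.637 for KRT7 and 0.721 for the other 3), where 0.0349% of genes were called. KRT7 was 0.871 and 0.636 TPM with DMSO and 2.16 and 1.95 with 2-CM, without overlap, at an unadjusted p of 0.00105. In all, 3 of the 4 had an unadjusted p under 0.05, beside 4.84% of all genes. RES in depc libraries gave -0.39 for KRT18, -0.19 for KRT8, 0.66 for KRT17 and 0.32 for KRT7, where 1.03% of genes were called, and 1 keratin and 14.7% of all genes had an unadjusted p under 0.05. With poly I:C, 2-CM gave 0.13 for KRT18, 0.02 for KRT8, 0.80 for KRT17 and 0.16 for KRT7, and RES gave -0.08, -0.22, 0.34 and 0.26. None of these passed limma, where 0.105% and 0.157% of genes were called, and 1 and 0 keratins had an unadjusted p under 0.05, beside 34.2% and 13.4% of all genes.

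Genes of related function were taken from lists. Of 45 other protein-coding keratins, 5 passed the filter, and 3 of the 5 fell with poly I:C averaged over compounds, where 17.8% of all tested genes fell. They were KRT81 (-1.24 ± 0.19, adjusted p = 0.00342), a keratin of hair, KRT80 (-1.11 ± 0.13, 0.00124), a keratin of many epithelia, and KRT86 (-0.70 ± 0.11, 0.00404), which shares bases with KRT7. With GC correction KRT86 no longer passed, and its values over all alternatives ran from -1.23 to -0.23. KRT10, of the upper epidermis, had 0.49 (adjusted p = 0.0637). KRT80 measured 15.3 TPM with DMSO depc and 5.71 with DMSO poly I:C, as group means (SD 0.308 and 1.41, n = 2). Its group means were 25.4 and 8.31 under 2-CM, and 10.8 and 7.20 under RES. By compound, 1 of the 5 fell under DMSO (3.28% of all tested genes), and 3 fell and 1 rose under 2-CM (11.8% and 37.5%). Under RES 0 were called (0.442%). The DMSO call was KRT80 (adjusted p = 0.0243 in limma), lost in 5 of 12 alternatives. The median of the 5 was -0.70 against 0.16 over all tested genes.

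Keratin filaments are fixed to junctions by plakins, plakoglobin and the plakophilins, and to the cell base by plectin and integrin beta 4. Of 20 such linkers and anchors, 14 passed the filter and 6 of the 14 fell averaged over compounds, beside 17.8% of all tested genes, while 8 did not pass. PLEC (plectin) fell by 1.67 ± 0.13 (adjusted p = 0.000179), JUP (plakoglobin) by 1.01 ± 0.14 (0.00286) and PPL (periplakin) by 0.84 ± 0.13 (0.00366). PLEC measured 43.5 TPM in DMSO depc and 11.5 in DMSO poly I:C (SD 0.478 and 2.84, n = 2), 50.1 and 16.7 under 2-CM, and 35.9 and 10.8 under RES. With GC correction ITGB4 (-0.52) and FAM83H (-0.36) no longer passed, and FAM83H was also lost with no filter. The values of FAM83H ran from -0.67 to 0.18 over the alternatives and left-out libraries. The median of the 14 was -0.09. Under 2-CM, 5 of the 14 rose and 5 fell, beside 37.5% and 11.8% of all tested genes, so the share that rose was near the background. These counts depended on the scaling, as did those of all tested genes. With upper-quartile scaling 1 rose and 6 fell, where 2266 and 4692 of all 17185 did. With median-of-ratios scaling they were 2 and 6, beside 3425 and 4097, and with GC correction 1 and 5, beside 2456 and 2695. With no filter they were 0 and 2, beside 421 and 228 of 40364 genes. DSP, DSC2, DSC3 and ITGB4, called in this comparison, changed sign in 1 or 2 of the alternatives. DSG2, desmoglein, had 2.02 (adjusted p = 0.0366) and PKP2, plakophilin, 2.00 (0.0281). DSG2 did not pass in 5 of 12 alternatives. With any of the 4 2-CM libraries left out, 0 of the 10 linkers called under 2-CM passed, in the fits that called 37 to 46 genes in all.

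Of 15 other intermediate filament genes, 14 passed the filter, and averaged over compounds 6 fell and 1 rose, beside 17.8% and 13.4% of all tested genes. With GC correction 3 fell and 1 rose, where 3302 and 3105 of all 17185 tested genes did, and the median of the 14 moved from -0.25 to 0.016. LMNB2 (lamin B2), at -0.42, changed sign in 2 of the alternatives. NES (nestin) fell by 1.31 ± 0.11 (adjusted p = 0.00033), LMNA (lamin A) by 0.88 ± 0.14 (0.00366) and SYNM (synemin) by 0.72 ± 0.17 (0.0179), while LMNB1 (lamin B1) rose by 0.96 ± 0.24 (0.0211). Without 2-CM depc replicate 2 or either 2-CM poly I:C library, 2 of the 14 fell in place of 6 and SYNM was not called, in fits in which 1728, 1806 and 2052 of all tested genes fell, against 3054. The call of LMNB1 was lost with 6 of the 12 libraries left out. VIM (vimentin), the filament protein of mesenchymal cells, did not pass at -0.06 ± 0.14 (adjusted p = 0.764), and it lay between 386 and 819 TPM, with a median of 592. KRT8 and KRT18 together measured 1.72 to 6.04 times the TPM of VIM. Of 16 epithelial transcription factors, 9 passed the filter and 2 rose, beside 13.4% of all tested genes: KLF4 (0.94, adjusted p = 0.00355) and KLF5 (0.81, 0.0184). With FPKM 5 of the 9 rose, where 3912 of all 17185 tested genes did. Without RES depc replicate 1, 6 rose (5679 of all), without RES poly I:C replicate 1, 4 (3453), and when DMSO poly I:C replicate 2 was left out, 5 (4410). The call of KLF5 was lost without DMSO depc replicate 2, DMSO poly I:C replicate 1, 2-CM depc replicate 2, 2-CM poly I:C replicate 1 or RES poly I:C replicate 2. By compound, 7 of the 9 rose under 2-CM, beside 37.5% of all tested genes. This count was 3 with upper-quartile scaling (2266 of all) or GC correction (2456), 2 of 15 with no filter, and 0 with any 2-CM library left out. Under DMSO and under RES limma called 0 of the 9, beside 0.797% and 0.198% of all tested genes called higher, and at an unadjusted p under 0.05 there were 0 and 1, beside 19.7% and 14% of all tested genes in either direction. With voom 0 were called in either, and with GC correction 1 rose under DMSO (1206 of all). TP63, the factor of basal cells, was at most 0.0434 TPM. Of the 9 basal and myoepithelial markers, which include TP63, KRT5 and KRT14, 3 passed the filter. They were ACTA2 (13.5 to 28.6 TPM), CNN1 (1.56 to 7.66) and MYLK (0.812 to 3.79).

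**Figure D5:**
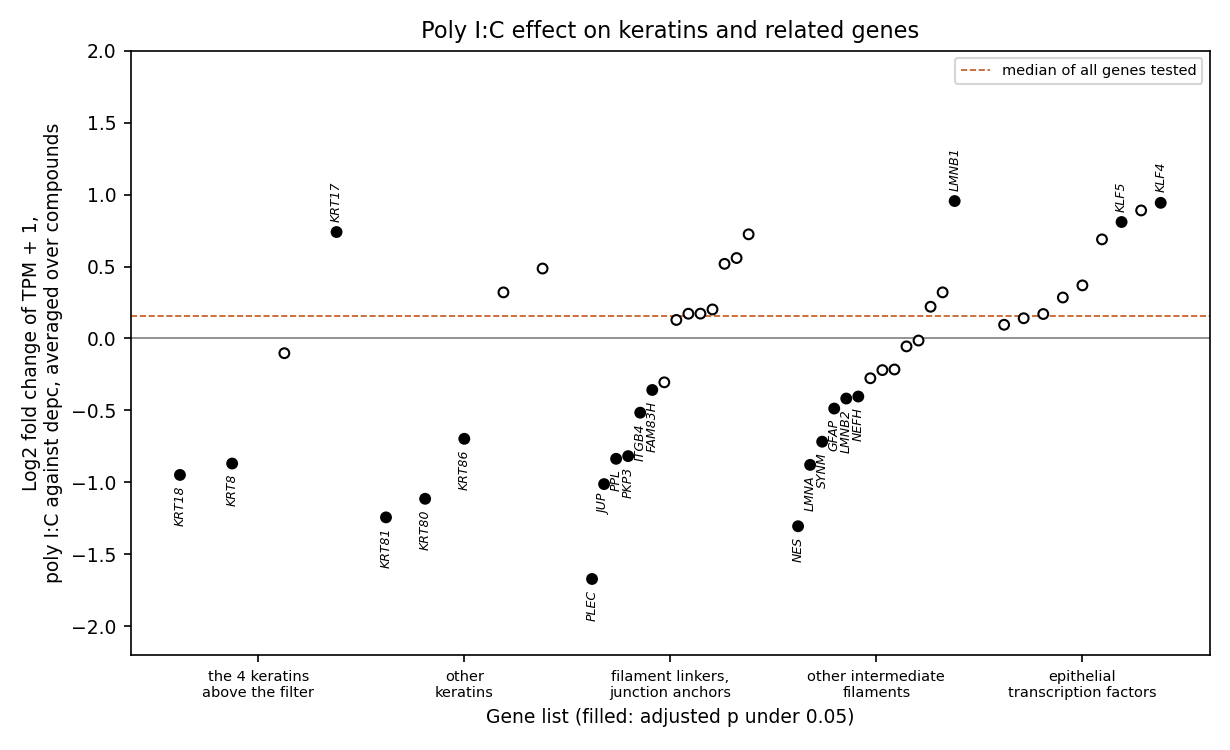
Log2 fold change of TPM + 1 with poly I:C, averaged over compounds (vertical axis), of the 4 keratins and of the tested genes of 4 lists, filled where the adjusted p is under 0.05. In the lists 3 of 5 other keratins, 6 of 14 linkers and 6 of 14 other filament genes fell, and the dashed line marks the median of all tested genes, 0.16.

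Fibroblast markers moved as well. Of 8, 5 passed the filter. Averaged over compounds, 2 rose (DCN and LUM) and 2 fell (COL1A1 by 1.39 and PDGFRB by 0.72), beside 13.4% and 17.8% of all tested genes. None of the 8 was at 0 in all libraries, but COL1A2, PDGFRA and THY1 reached at most 0.0193, 0.0813 and 0.7497 TPM. The summed TPM of the 8 markers was 129.6 to 143.7 in DMSO depc, 51.3 to 85.4 in DMSO poly I:C, 147 to 157 in 2-CM depc, 149 to 159 in 2-CM poly I:C, 85.6 to 96.6 in RES depc and 51.5 to 71.4 in RES poly I:C. Under 2-CM the sum overlapped between the transfections, while its members moved apart. From depc to poly I:C, the group means of COL1A1 were 92.6 and 41.4 TPM and of PDGFRB 9.44 and 6.40, and those of COL3A1 were 42.1 and 57.3, of LUM 3.73 and 30.6 and of DCN 4.19 and 17.9. Of these, COL1A1 fell and LUM and DCN rose in limma, where 11.8% of all tested genes fell and 37.5% rose. The other 2 did not pass (adjusted p = 0.068 for PDGFRB and 0.282 for COL3A1). The alternatives and left-out libraries were not examined for the fibroblast markers, so these calls rest on the fit as reported. Their part in the keratin values was not tested.

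The genes most like each member were found by the root mean square difference of log2(TPM + 1) profiles over the 12 libraries, each profile centred on its own mean, among genes with a mean TPM of 5 or more. Profiles over 12 libraries of 6 groups share libraries and groups, and the values are descriptions. For KRT8, whose own profile spans 1.63, PYCR1 (0.0914) and ARMC6 (0.0955) were nearest, and among the members KRT18 (0.127). For KRT18 they were FPGS (0.107) and HGH1 (0.108), and for KRT7 VSIG10L (0.161) and SEC14L2 (0.166). For KRT17 the distances were larger, with SNHG30 (0.258) and SLC25A28 (0.260) nearest, and its nearest member was KRT7 (0.527).

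The authors' deposited tables compare poly I:C with depc under each compound. In the authors' deposited table for 2-CM, KRT18 had a log2 fold change of -2.17 (adjusted p = 2.24e-39), KRT8 -2.06 (3.16e-36), KRT7 -2.40 (1.93e-04) and KRT17 1.07 (0.119). The limma values under 2-CM were smaller in size for KRT18 and KRT8, at -1.32 and -1.15. Over different sets of genes, the median log2 fold change was 0.13 in that deposited table and 0.61 in limma. The cause of this gap was not tested. In the authors' deposited table for DMSO, KRT18 had -0.65 (adjusted p = 0.661), KRT8 -0.40 (0.862), KRT17 2.03 (0.182) and KRT7 -0.16 (0.984), the last opposite in sign to the 0.13 from limma. In the authors' deposited table for RES, KRT18 had -0.63, KRT8 -0.58 and KRT17 0.98, each with an adjusted p of 0.999, and KRT7 had 0.0057 (adjusted p = 0.999956).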

How the data were processed

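RNA of 12 libraries was measured by paired-end sequencing with reads of 101 bases, from a kit that keeps strand, per the labels' protocols. The submitters' processing notes name bcl2fastq 2.20, HISAT2 2.1.0, StringTie, DESeq2 and hg38, without giving DESeq2 a role. Per the file headers, StringTie 2.0.4 was run with GENCODE 32 and wrote for each transcript a coverage, an FPKM and a TPM. The authors' deposited tables hold a mean of normalised counts as a signal, a log2 fold change, its standard error, a test score and both raw and adjusted p-values.

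Transcript TPM was summed to genes. Estimated reads came from coverage, transcript length and read length, and gave 31.2 to 49.4 M reads per library, which limits values under 3 reads. The deposited files used here hold no counts, so limma 3.58.1 in R 4.3.3 on log2(TPM + 1) took the place of the count test first chosen. It ran on 17185 genes whose TPM was not under 1 in 2 libraries or more. The 6 group means shared 1 trended, moderated spread (residual degrees of freedom 6, median prior 2.74). A call needed an adjusted p under 0.05 (Benjamini-Hochberg, per contrast, 10 contrasts). This scale understates changes of low genes. The script was tested on simulated data. Coordinates follow the deposited files on GRCh38, counted from 1, and all 49338 genes shared with GENCODE 44 by identifier and version had the same ends. Promoters are from RefSeq on GRCh38.p14.

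Alternatives were FPKM, upper-quartile and median-of-ratios scaling, other filters, another pseudocount, voom, a GC correction, the replicate number as a block, only the groups compared, added pseudogene copies and each library left out. All 10 members are named. From each list, up to 3 called genes per direction are named by size of log2 fold change, or the most abundant ones, and genes outside this rule were chosen after their values were seen. The members and lists were chosen with earlier results of these data known. An item of the lists is not reported here.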

Additional observations from a re-analysis of the deposited data

How the results depend on the processing

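The averaged comparison held best: KRT8 and KRT18 kept their calls in all 12 alternatives and with each of the 12 libraries left out, with log2 fold changes of KRT18 between -1.30 and -0.69 and of KRT8 between -1.22 and -0.60 over the alternatives, and 2 to 4 of the 4 keratins were called (3 with each library left out, in fits with 584 to 5679 higher and 1728 to 3504 lower calls over all genes). In the averaged comparison, the fit with only the groups compared uses all 6 groups, so it repeats the fit as reported and is no separate check. With pseudogene copies added, 5361 genes were again called, since the copies change only the values of the members. Under DMSO, 1 keratin was called, against 0 with FPKM (125 of all genes called), upper-quartile scaling (141), median-of-ratios scaling (136), no filter (832), voom (244) and only the groups compared (6), and 2 with GC correction (2700) or GC correction with the replicate block (2498). As reported, 701 genes were called. Leaving out a library, where its group's lone sample is assumed to vary like the other groups, gave 0 to 1, with 25 to 908 genes in all. Under 2-CM, 4 keratins of 8475 genes called became 1 with no filter (649), 3 with upper-quartile scaling, median-of-ratios scaling, the pseudocount of 0.1 and GC correction with or without the block, and 0 to 4 with a library left out (37 to 10157). A TPM minimum of 5 (7002 genes called) left 2 keratins to test, and both were called. Under RES, 0 were called in every alternative, with 0 to 545 genes called in all against 76. In the other 6 comparisons, 0 keratins were called under every alternative, while calls over all genes ran from 0 to 1935 for RES against DMSO with depc (177 as reported), 0 to 760 for 2-CM with poly I:C (18), 0 to 1182 for RES with poly I:C (27), 0 to 97 for 2-CM with depc (6), and 0 to 55 and 0 to 39 for the differences in response under 2-CM (2) and RES (0). The first 3 maxima came with GC correction and the last 3 with no filter. KRT7 reversed under DMSO with voom (-0.27) and averaged over compounds with GC correction (0.25, also with the block). The replicate numbers were not taken to pair the samples: deviations of same-numbered libraries correlated from 0.15 to 0.76 in the 10 pairs of groups without RES poly I:C, and from -0.80 to -0.31 in the 5 pairs with it. With the replicate block, 0 keratins were called under DMSO (346 of all genes), 4 under 2-CM and 3 on average. Higher and lower calls were 137 and 564 under DMSO, against 88 and 37 with FPKM, 107 and 34 with upper-quartile, and 107 and 29 with median-of-ratios scaling. Under 2-CM they were 6440 and 2035, against 2266 and 4692 and 3425 and 4097 with the latter 2 scalings, and averaged they were 2307 and 3054, against 3912 and 2448 with FPKM. Under RES they were 34 and 42, against 32 and 4, 40 and 6, and 39 and 2 with FPKM and the same scalings. With GC correction they were 1206 and 1494 under DMSO and 2456 and 2695 under 2-CM. The cause of these changes was not tested. Depth limits KRT17 and KRT7, with medians of 52.3 and 32.5 estimated reads.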
